A study of Gallus gallus with 10 samples.

Results

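COL6A2, ACTB, SCNN1A, KRT7 and SRGAP3 are 5 of the 29558 genes in a count table from the magnum, the stretch of the hen's oviduct that puts egg white around the yolk. They were chosen by name because their counts varied strongly between hens of the same age, so that variation and its sharing among the 5 genes are given below as description, without a test. What the choice did not use is their relation to age and to the egg white genes. A wide spread within each age does, however, make an age difference harder to detect. The birds were broiler breeder hens (Gallus gallus), 5 of them 50 weeks old, when lay declines, and 5 of them 35 weeks old, at peak lay. Whole magnum was taken, each bird has its own number, and each had an egg in the magnum. One library was made per hen, so n counts hens. The sources used here do not give the strain, the housing or the laying record of single hens. The titles also mention the shell gland, a later oviduct segment, but the egg white genes were present in every library, with 3972 to 5509 counts of OVAL, the ovalbumin gene, at 50 weeks and 4638 to 7293 at 35 weeks.

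The magnum wall is a folded mucosa of tubular gland cells, which make the egg white proteins, under a lining of ciliated and goblet cells, set on connective tissue and smooth muscle. COL6A2 encodes a chain of collagen VI, a beaded microfilament of the extracellular matrix that is assembled from different chains. ACTB encodes beta-actin, the cytoplasmic actin of nearly every cell, and KRT7 encodes a keratin of simple and glandular epithelia. SCNN1A encodes the alpha subunit of the epithelial sodium channel, through which sodium enters epithelial cells at their free surface, and SRGAP3 encodes a GTPase-activating protein of the SLIT-ROBO pathway, which switches off Rac and shapes membranes and the actin beneath them. The label under which the 5 genes were gathered was tissue structure. SCNN1A is a channel gene and SRGAP3 a signalling gene, and the other collagen VI chains and sodium channel subunits were near 0 counts, so the genes are called here by their names.

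Libraries were shallow, with 188271 to 258195 counts each and 7614 to 8616 genes detected. Of the 29558 genes, 13766 had no count in any library and 1773 had enough counts to be tested for age. Replicate 4 at 50 weeks had the highest total, with 258195 counts, and replicates 1 and 2 at 35 weeks had 223298 and 234824, against 188271 to 228363 in the other 7 libraries. These 3 libraries stand apart in the 5 genes and in many others, and age and egg white results are given with and without them. Levels are given as counts and as CPM, counts scaled to a common library size with the trimmed mean of M-values (TMM).

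COL6A2 had 7, 12, 16, 226 and 2 counts in replicates 1 to 5 at 50 weeks, and 97, 124, 1, 38 and 10 counts at 35 weeks. A single hen at 50 weeks and a pair of hens at 35 weeks carried most of the signal, and the ages overlapped over nearly the whole range. The levels averaged 208 ± 373 CPM at 50 weeks, against 244 ± 235 CPM at 35 weeks (SD, n = 5 each), so the SD exceeded the mean at 50 weeks and nearly equalled it at 35 weeks. Replicate 4 at 50 weeks reached 873 CPM, against 8.66 to 67.4 CPM in the other hens of its age. In whole tissue, fewer cells that express a gene and less RNA per cell cannot be told apart.

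ACTB had 20, 17, 11, 74 and 22 counts in replicates 1 to 5 at 50 weeks, and 93, 76, 14, 22 and 13 counts at 35 weeks. The same 3 hens were again the highest, here with the pair at 35 weeks above the hen at 50 weeks. Its levels averaged 120.5 ± 94.8 CPM at 50 weeks, against 200.1 ± 163 CPM at 35 weeks. The table also lists ACTG1, the near-identical gamma-actin gene, under 2 gene IDs, with 5 to 25 and 3 to 37 counts at 50 weeks and with 5 to 25 and 9 to 24 counts at 35 weeks. The sources used here do not say how reads shared by the actin genes were assigned, so the ACTB values are uncertain to that extent.

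KRT7 was close to the detection limit, with 1, 0, 0, 16 and 0 counts at 50 weeks and 7, 9, 2, 1 and 3 counts at 35 weeks. Only replicate 4 at 50 weeks and replicates 1 and 2 at 35 weeks had more than 3 counts. The 3 hens with a count of 0 could have held up to 12.6 to 13.5 CPM, the level that 3 counts would give in their libraries (counting error only). With those zeros the mean was 13.3 ± 27.2 CPM at 50 weeks, against 20.4 ± 14.4 CPM at 35 weeks.

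SCNN1A had 8, 6, 11, 97 and 8 counts at 50 weeks, and 21, 19, 6, 13 and 11 counts at 35 weeks. Here replicate 4 at 50 weeks stood far above every other hen, at 375 CPM, while replicates 1 and 2 at 35 weeks led by little, at 94.9 and 82.4 CPM with the next hen at 63.0 CPM. The mean was 104 ± 151 CPM at 50 weeks, against 66.2 ± 24.0 CPM at 35 weeks, the smallest relative spread of the 5 genes at 35 weeks (36.3% of the mean).

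SRGAP3 had 5, 0, 1, 58 and 4 counts at 50 weeks, and 52, 44, 0, 4 and 5 counts at 35 weeks. The 3 high hens were nearly equal, at 224 CPM at 50 weeks and at 235 and 191 CPM at 35 weeks, and no other hen passed 26.7 CPM. The mean was 54.0 ± 95.6 CPM at 50 weeks, against 94.4 ± 110 CPM at 35 weeks. A count of 0 allowed up to 13.5 CPM in replicate 2 at 50 weeks and up to 16.04 CPM in replicate 3 at 35 weeks.

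**Figure D1:**
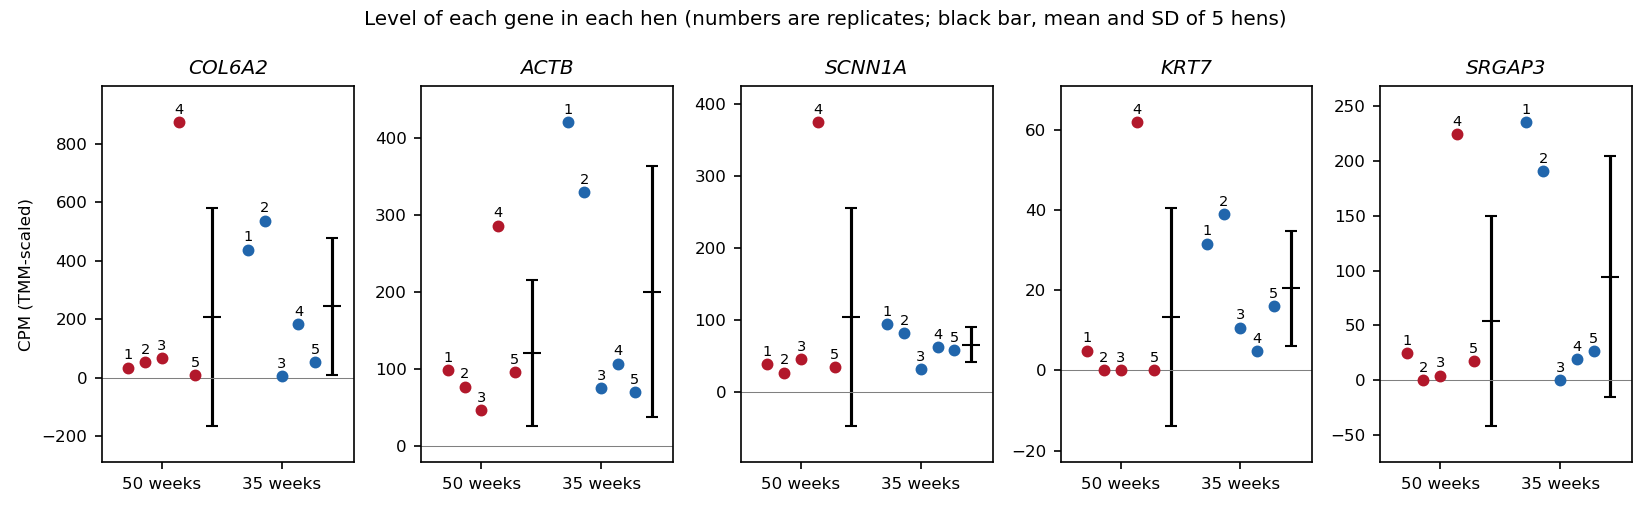
Level of COL6A2, ACTB, SCNN1A, KRT7 and SRGAP3 in CPM (vertical axes, linear, one scale per gene) in each hen at 50 weeks (red) and 35 weeks (blue), with replicate numbers beside the points and black bars for the mean and SD of 5 hens. Replicate 4 at 50 weeks and replicates 1 and 2 at 35 weeks are the highest 3 points in all 5 panels, and the SD bars of the ages overlap.

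In all 5 genes the top 3 hens were replicate 4 at 50 weeks and replicates 1 and 2 at 35 weeks. These hens supplied 32.8% of all counts in the table, but 83.9% of the COL6A2 counts, 67.1% of ACTB, 68.5% of SCNN1A, 82.1% of KRT7 and 89.0% of SRGAP3. The step between the hens ranked 3 and 4 was 191 against 26.7 CPM for SRGAP3, 438 against 184 CPM for COL6A2, 286 against 107 CPM for ACTB, 31.6 against 16.03 CPM for KRT7 and 82.4 against 63.0 CPM for SCNN1A. Below that step the order was not shared, but there KRT7 had 0 to 3 counts and SRGAP3 0 to 5, too few to order hens. Replicate 4 at 35 weeks came next for COL6A2, ACTB and SCNN1A, and replicate 5 at 35 weeks came next for KRT7 and SRGAP3. Among the 1773 tested genes, 72 (4.06%) had these 3 hens above the other 7, and 65 (3.67%) had them below, so the 5 genes belong to a wider set on which these libraries stood apart in both directions.

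Within an age, the spread of log2 CPM (prior count 2) was 2.14 for COL6A2, the largest of the 1773 tested genes, 1.05 for SCNN1A (rank 36) and 1.03 for ACTB (rank 42), with a median of 0.391 over the tested genes. KRT7 and SRGAP3 had too few counts to be ranked. After the mean of each age was taken out, the 10 pairs of the 5 genes had Pearson correlations across the 10 hens of 0.72 (ACTB with SCNN1A) to 0.93 (ACTB with SRGAP3), with a median of 0.83. The pairs share their libraries, their depth and the 3 high hens. Leaving out any 1 hen kept each of them at 0.52 or above. Without the 3 high hens the correlations across the other 7 ran between -0.34 and 0.71 with a median of 0.11, and 5 of 10 were positive. COL6A2 with SCNN1A (0.70) and SCNN1A with SRGAP3 (0.71) were the highest of these. In those 7 hens KRT7 had at most 3 counts and SRGAP3 at most 5. Low correlations of their pairs therefore do not show that shared variation was absent there.

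**Figure D2:**
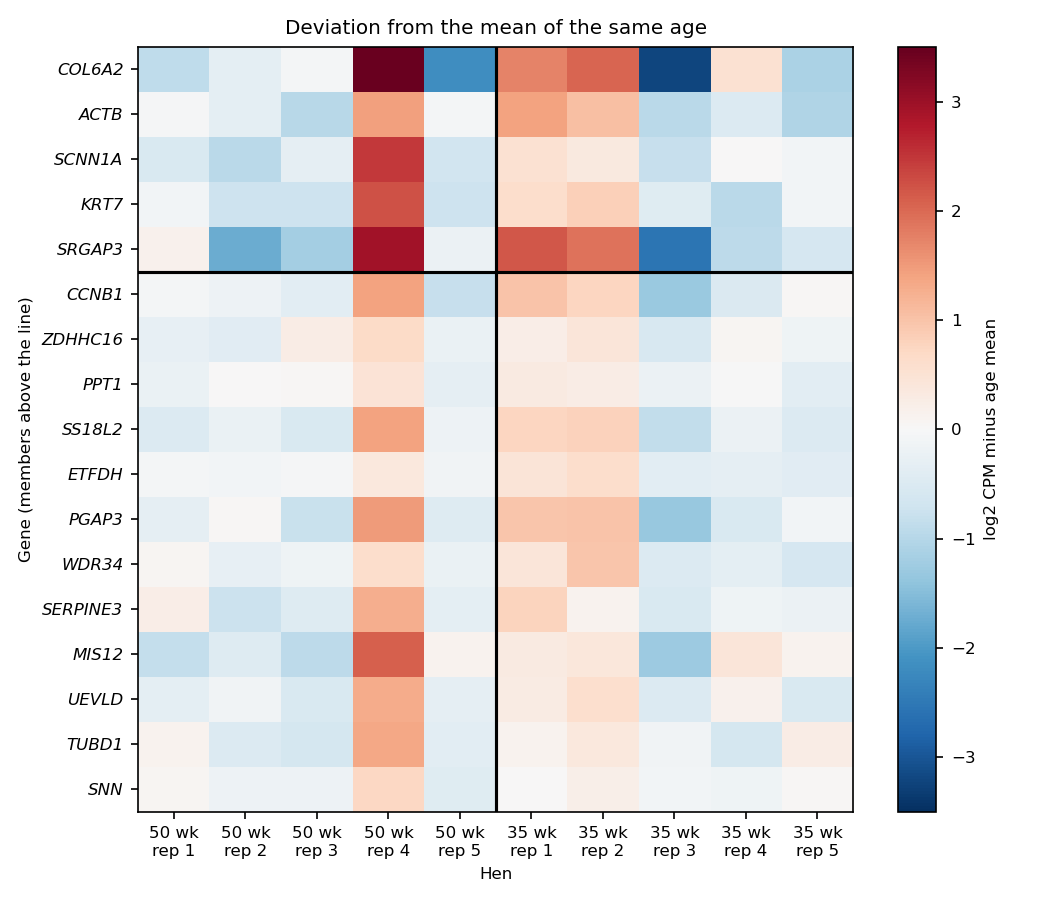
Deviation of log2 CPM from the mean of the same age (colour, red above and blue below) for the 5 genes (upper rows) and the genes most like them (lower rows), in the 5 hens at 50 weeks (left) and the 5 at 35 weeks (right). The columns of replicate 4 at 50 weeks and of replicates 1 and 2 at 35 weeks are red in nearly every row, and COL6A2 spans the widest range.

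For each of the 5 genes, the 4 tested genes with a symbol that followed it most closely over the 10 hens were found by Pearson correlation of the same deviations. For COL6A2 they were CCNB1, the mitotic cyclin B1 (0.91), the palmitoyltransferase gene ZDHHC16 (0.90), PPT1, which removes palmitate from proteins in lysosomes (0.90), and SS18L2 (0.90). For ACTB they were SS18L2 (0.94), ETFDH of the mitochondrial electron transfer chain (0.91), PGAP3, which remodels GPI anchors (0.90), and the dynein-2 chain gene WDR34 (0.89). For SCNN1A they included the serpin gene SERPINE3 (0.89), the kinetochore gene MIS12 (0.89) and UEVLD (0.88). For KRT7 they included TUBD1, or delta-tubulin (0.95), and SNN (0.93). For SRGAP3 they were SS18L2 (0.93), ACTB itself (0.93), PGAP3 (0.92) and CCNB1 (0.91). Only tested genes could be named here. The keratin genes KRT18 and KRT80 were not tested, and the collagen and matrix list had 3 tested genes, COL6A2 among them. That no collagen or keratin was named therefore says little. None was an egg white gene, of which 15 of the 1773 tested genes could have been named.

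Counts of 3 of these genes, picked after their values were seen, show the pattern. SS18L2, named for 3 of the 5 genes, had 48 counts in replicate 4 at 50 weeks and 33 and 36 in replicates 1 and 2 at 35 weeks, against 8 to 15 in the other 7 hens. UEVLD had 1736 counts in replicate 4 at 50 weeks and 705 and 908 in replicates 1 and 2 at 35 weeks, against 339 to 596 in the other 7 hens. WDR34 had 399 counts in the first of these hens and 486 and 745 in the other two, against 183 to 267. UEVLD and WDR34, with at least 183 counts in every library, thus also had the contrast between the 3 hens and the rest. Both were named for following the 5 genes over the same hens, so that contrast was in part built into the choice. None of the 12 genes named here beside the 5 passed the test for age, with adjusted p of at least 0.394 by edgeR's quasi-likelihood test after Benjamini-Hochberg adjustment.

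COL6A2 was high in the 3 hens without the other chains of collagen VI. COL6A1 had 0 or 1 counts in every hen and COL6A3 had 0 or 1 at 50 weeks and 0 to 5 at 35 weeks. The fibrillar collagen genes COL1A1, COL1A2 and COL3A1 had 0 to 3 counts at 50 weeks and 0 to 4 at 35 weeks. The list of collagen and matrix genes without COL6A2 summed to 96 counts in replicate 4 at 50 weeks and to 67 and 74 in replicates 1 and 2 at 35 weeks, within the 61 to 96 of the other 7 hens. Of the 43 genes of this list in the table, 3 could be tested and none passed for age. COL18A1 (collagen XVIII) averaged 61.0 ± 12.6 CPM at 50 weeks, against 44.5 ± 19.0 CPM at 35 weeks, and TIMP3, an inhibitor of matrix proteases, averaged 60.8 ± 24.1 CPM at 50 weeks, against 45.0 ± 25.7 CPM at 35 weeks.

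For ACTB the summed counts of the rest of the actin list were higher in the same hens. Without ACTB it summed to 1270 counts in replicate 4 at 50 weeks and to 1372 and 1530 in replicates 1 and 2 at 35 weeks, against 697 to 1079 in the other 7 hens. DSTN, the actin-severing protein destrin, made up most of that sum, with 885 counts in the first of these hens and 1043 and 1232 in the other two, against 460 to 826. On the CPM scale the separation was narrow, with 4908 CPM in replicate 4 at 50 weeks and at most 4866 CPM among the other 7. With DSTN also left out, the list had 1488 CPM in that hen and 1486 and 1292 CPM in replicates 1 and 2 at 35 weeks. The other 7 had 1030 to 1388 CPM, so replicate 2 at 35 weeks was then not apart. Of the 40 actin genes counted, 9 were tested and none passed for age (3 positive and 6 negative fold changes, median log2 -0.12). EZR (ezrin, which ties actin to the membrane) averaged 73.8 ± 24.1 CPM at 50 weeks, against 97.4 ± 17.0 CPM at 35 weeks. ARPC2 and ARPC1B, subunits of the complex that branches actin filaments, had log2 fold changes of 0.49 and 0.08, and DSTN had -0.12. Of the 9 tested genes, ARPC4, another subunit of that complex, and ACTB itself had the 3 hens above the rest.

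Beside KRT7, the keratin genes KRT18 and KRT80 were high in the same hens. KRT18, an acidic keratin of simple epithelia, had 5, 2, 8, 28 and 4 counts at 50 weeks and 19, 26, 7, 13 and 7 at 35 weeks. KRT80 had 3, 4, 5, 14 and 5 counts at 50 weeks and 13, 18, 2, 4 and 5 at 35 weeks. Their age deviations correlated with those of KRT7 at 0.84 and 0.79 over the 10 hens. The keratin and junction list without KRT7 summed to 125 counts in replicate 4 at 50 weeks and to 107 and 107 in replicates 1 and 2 at 35 weeks, against 44 to 65 in the other 7, and it was separated on the CPM scale too, with at least 464 CPM against at most 321 CPM. EPCAM, an adhesion molecule of epithelia, had 7 to 20 counts at 50 weeks and 3 to 14 at 35 weeks. EPCAM and the beta-catenin gene CTNNB1 were the 2 tested genes of this list of 32, neither passed for age, and their log2 fold changes were both 0.24.

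SCNN1A was the only sodium channel subunit with more than 1 count in a library. SCNN1B had 0 or 1 counts in every hen, SCNN1D had 1 count in all 10 libraries together and SCNN1G had none. ATP1B1, a beta subunit of the sodium pump, which moves sodium out of the cell, had 10 to 23 counts at 50 weeks and 5 to 24 at 35 weeks. The salt transport list without SCNN1A summed to 116 counts in replicate 4 at 50 weeks and to 102 and 170 in replicates 1 and 2 at 35 weeks, against 48 to 78 in the other 7. In CPM these were 448, 461 and 737, against 256 to 417. The gap was thus narrow for replicate 4 at 50 weeks and replicate 1 at 35 weeks. Of its 26 genes, 4 were tested and none passed for age. HSD11B2, which inactivates glucocorticoids, averaged 53.3 ± 24.4 CPM at 50 weeks, against 76.5 ± 44.2 CPM at 35 weeks.

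The partners of SRGAP3 were scarce. Among the ROBO receptors, ROBO1 had 0 to 3 counts and ROBO2 had 1 count in all, while the ligand gene SLIT2 had 2 to 6 counts at 50 weeks and 5 to 8 at 35 weeks. RAC1, the GTPase that SRGAP3 acts on, had 15, 15, 6, 22 and 10 counts at 50 weeks and 19, 20, 8, 7 and 13 at 35 weeks. The list of SLIT-ROBO pathway and small GTPase genes without SRGAP3 summed to 72 counts in replicate 4 at 50 weeks and to 90 and 105 in replicates 1 and 2 at 35 weeks, against 50 to 81 in the other 7, so here the hen at 50 weeks was not apart. Of its 32 genes RAC1 (log2 fold change -0.12) and RHOA (-0.39) were tested and neither passed for age. In these 5 lists no tested gene had an unadjusted p under 0.05 by edgeR, where 10.5% of all tested genes did. The lists held few tested genes, and COL6A2, ACTB and SCNN1A, chosen for their wide spread, were among them. The median log2 fold changes were 0.43 (matrix), -0.12 (actin), 0.24 (keratins and junctions), -0.26 (salt transport) and -0.25 (SLIT-ROBO and small GTPases). Over all tested genes the median was 0.0065.

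**Figure D3:**
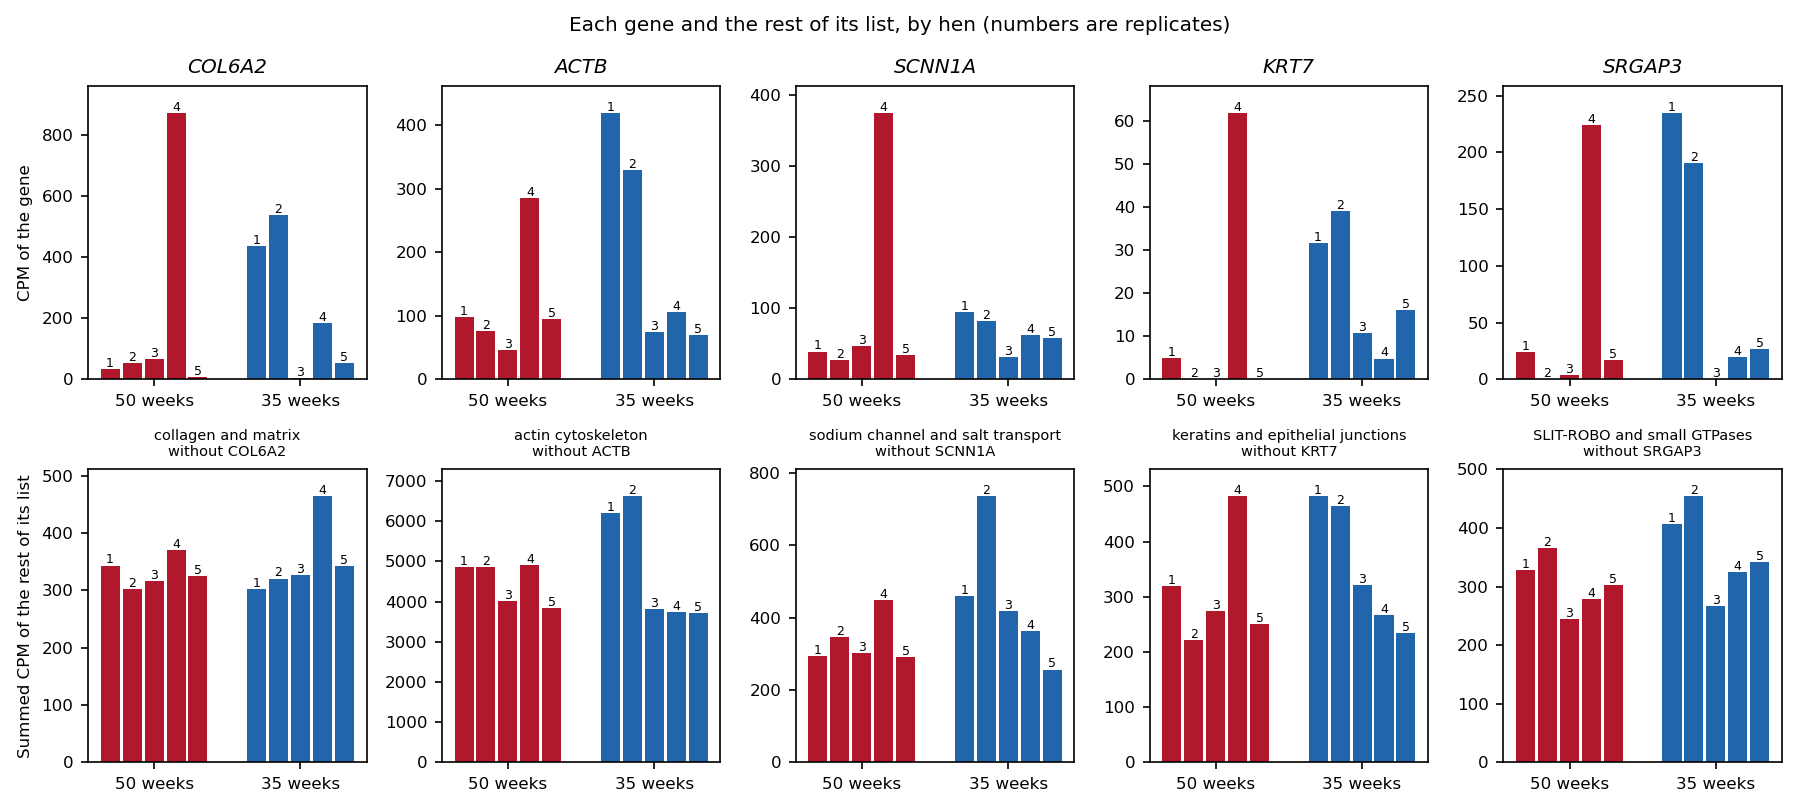
CPM of each of the 5 genes (upper row) and summed CPM of the other genes of its list (lower row) in each hen at 50 weeks (red) and 35 weeks (blue), all bars starting at 0. The keratin list follows KRT7 with 3 high hens, whereas the collagen and matrix list without COL6A2 stays between 302 and 465 CPM in all hens.

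No list of markers of other cell types had summed counts in all 3 high hens above those of the other 7. Fibroblast markers, 11 genes, summed to 8 counts in replicate 4 at 50 weeks and to 7 and 5 in replicates 1 and 2 at 35 weeks, against 1 to 13 in the other 7 hens, with TCF21 at 0 in all libraries. The 13 smooth muscle markers summed to 36, 47 and 50 counts in the same hens, against 25 to 81, with none at 0 in all libraries. The 10 endothelial markers, most of them VWF, summed to 146, 179 and 146, against 165 to 201, with CLDN5 at 0. The 13 ciliated cell markers summed to 62, 52 and 21, against 42 to 73. The 8 shell gland entries, with SPP1, CALB1 and SLC26A9 at 0, summed to 19, 17 and 14, against 1 to 21. The 8 erythrocyte and thrombocyte markers, nearly all NFE2, summed to 741, 566 and 656 counts in the same hens, against 454 to 727, with GP9 and ITGA2B at 0. The 9 nerve markers summed to 0, 0 and 2 counts, against 0 to 1, and the 7 mesothelial or fat markers to 6, 3 and 2, against 1 to 4.

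In a few lists 1 or 2 of the 3 hens lay above the other 7. The 10 leukocyte genes summed to 145 counts in replicate 4 at 50 weeks and to 56 and 66 in replicates 1 and 2 at 35 weeks, against 44 to 75, and the first value rested on CD3E, a T cell receptor chain, with 103 counts in that hen and 13 to 44 elsewhere. Without CD3E the sums were 42, 27 and 22, against 16 to 43, and CD4 and LCP1 were at 0 in all libraries. The 8 immediate early genes, which respond quickly to handling or stimulation, summed to 35 counts in replicate 4 at 50 weeks and to 23 and 32 in replicates 1 and 2 at 35 weeks, against 5 to 26. Isthmus and infundibulum markers (5 genes) summed to 2, 4 and 3 counts, against 0 to 2, with GDF9 and ZPLD1 at 0. Mitochondrially encoded protein genes held 0.495%, 0.768% and 0.656% of the counts, within the 0.471% to 1.08% of the other 7. The part of these values in the levels of the 5 genes was not tested.

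Age did not separate the 5 genes. By edgeR's quasi-likelihood test over 1773 genes, none of COL6A2, ACTB and SCNN1A passed an adjusted p of 0.05, where 1 of all tested genes passed (0.0564%), and none had an unadjusted p under 0.05, where 10.5% of all tested genes did. COL6A2 had a log2 fold change (50 over 35 weeks) of -0.22 with an SE of 1.14 (adjusted p = 0.969), and ACTB had -0.73 with an SE of 0.62 (adjusted p = 0.766). SCNN1A had 0.67 with an SE of 0.74 (adjusted p = 0.815). KRT7 and SRGAP3 failed the filter on low counts. With no filter, over 15792 genes of which 0.228% passed, KRT7 had -0.51 with an SE of 0.58 (adjusted p = 0.727) and SRGAP3 had -0.76 with an SE of 1.31 (adjusted p = 0.865). No gene of the 5 had ages that did not overlap, against 1.64% of tested genes. The 5 genes were chosen for a wide spread within each age, which widens these SEs and makes passing less likely. Their failure to pass is therefore not independent of the choice. The SEs leave room for large differences in either direction. So no age difference was detectable at this spread, which does not show that the levels were alike. None of the 5 is among the 203 genes in the authors' deposited table of age differences. The count table has 29558 genes, so most genes are absent from that list.

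Replicate 4 at 50 weeks decided the size of these differences. Without it, the log2 fold change of COL6A2 was -2.56 (SE 0.98, adjusted p = 0.312 by edgeR), ACTB had -1.35 (SE 0.59, adjusted p = 0.375) and SCNN1A turned to -0.84 (SE 0.36, adjusted p = 0.345). All 3 then had an unadjusted p under 0.05. Over all tested genes 12.7% did, and 0.654% passed after adjustment. By edgeR with no filter, KRT7 had -3.63 (SE 0.99, unadjusted p = 0.000236, adjusted p = 0.0531). SRGAP3 had -3.00 (unadjusted p = 0.0683, adjusted p = 0.597 by the same test). So all 5 genes were lower at 50 weeks in the estimate without that hen, and none passed. That hen was the highest of its age in all 5 genes, and the other high hens, of the other age, were kept. Its removal therefore had to shift each estimate downward. The p-values of this fit, which left out a hen for its level at one age only, cannot decide whether the ages differ. Without the 3 high hens, the log2 fold changes were -0.99 for COL6A2, -0.09 for ACTB, -0.48 for SCNN1A, -2.68 for KRT7 and -0.44 for SRGAP3, and adjusted p by edgeR lay between 0.671 and 0.933. The unadjusted p by edgeR were then 0.306 for COL6A2, 0.782 for ACTB and 0.274 for SCNN1A. With no filter they were 0.0386 for KRT7 (adjusted p = 0.725) and 0.569 for SRGAP3. KRT7 had at most 3 counts in each remaining hen.

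**Figure D4:**
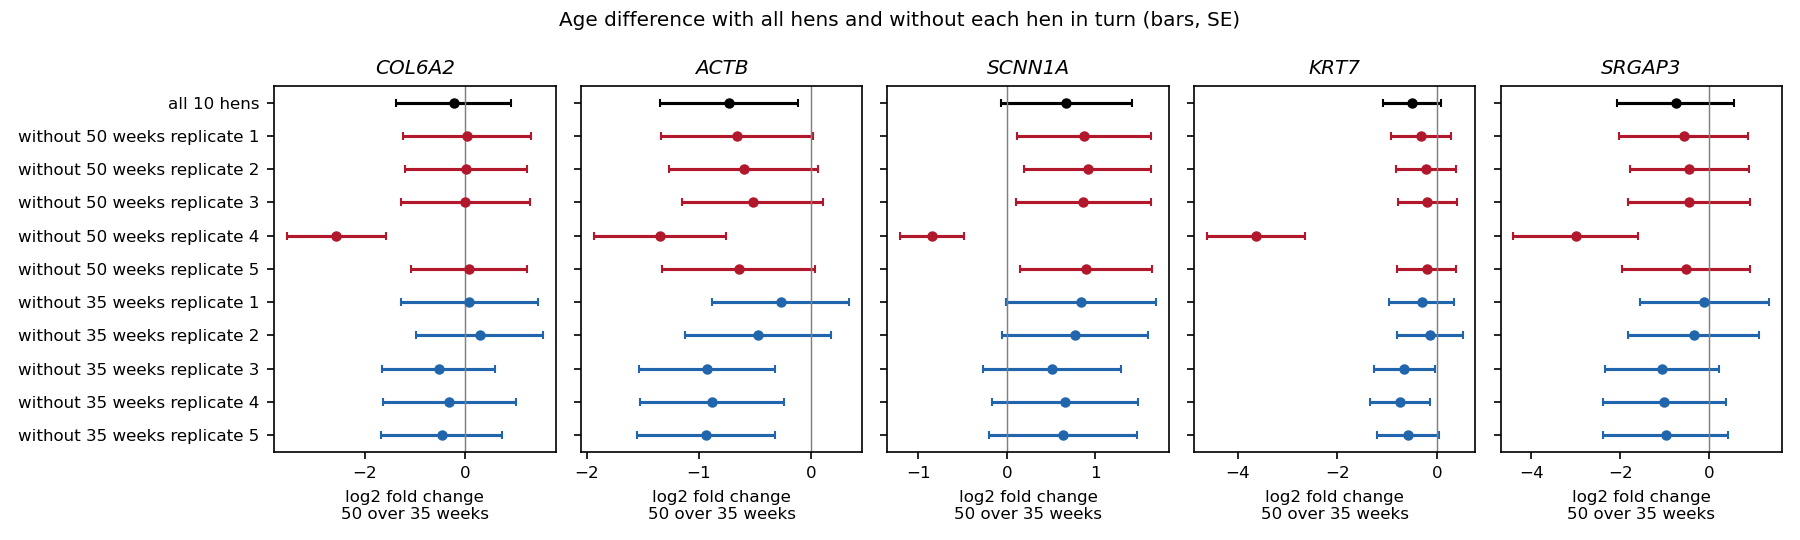
Log2 fold change at 50 over 35 weeks (horizontal axes, bars for the SE) of each of the 5 genes with all 10 hens (black, top) and without each hen at 50 weeks (red) and 35 weeks (blue). Leaving out replicate 4 at 50 weeks moves every gene to the left, to between -0.84 (SCNN1A) and -3.63 (KRT7), and leaving out any other hen moves each gene by less.

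The summed share of the egg white genes differed between the ages. The 22 genes of the list present in the table held 4.33%, 2.98%, 3.62%, 3.19% and 3.44% of all counts in replicates 1 to 5 at 50 weeks, and 5.75%, 5.00%, 4.57%, 4.40% and 4.33% at 35 weeks. The 95% Wilson intervals were at most 0.0966 percentage points to either side. The shares averaged 3.51% ± 0.519 at 50 weeks and 4.81% ± 0.586 at 35 weeks (SD, n = 5 each), a difference of -1.30 points with an exact two-sided permutation p of 0.0159 over 252 assignments. Without the 3 high hens the difference was -0.844 points (exact permutation p = 0.0857). OVAL, OVALY, TF (ovotransferrin) and SPINK7 (ovomucoid), the list's most counted genes, had log2 fold changes of -0.37, -0.75, -0.83 and -0.78, and none passed over all genes. None of the 15 tested egg white genes had the 3 hens above the other 7, where 4.06% of all tested genes did. With 15 genes, none is close to that share. The lower egg white share at 50 weeks also made such a pattern less likely, since 1 of the 3 hens was of that age.

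Replicates 1 and 2 at 35 weeks, high in all 5 genes, had the highest egg white shares of the 10 hens. Replicate 4 at 50 weeks, also among the top 3 hens in all 5 genes, had the second lowest share. OVALY had 266 counts in that hen, the fewest of the 10, against 313 to 378 in the other hens at 50 weeks and 452 to 610 at 35 weeks. Other egg white genes were not lowest there. OVAL had 5044 counts and TF 796 in that hen, and replicate 2 at 50 weeks had fewer, with 3972 and 719. The 3 high hens were the top 3 in all 5 genes, in differing order, and lay toward opposite ends of the egg white range of both ages together. That range includes the age difference. Within its age, replicate 4 at 50 weeks was at 3.19%, against a mean of 3.51% ± 0.519. Replicates 1 and 2 at 35 weeks were at 5.75% and 5.00%, against a mean of 4.81% ± 0.586.

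Between hens of the same age, with all hens but 1 for SCNN1A, none of the 5 genes had a correlation with the egg white share that passed after adjustment over the 5 (5 relations, exact two-sided permutation of hens within each age). For COL6A2 the Pearson r was 0.17 (p = 0.639) and Spearman's coefficient 0.20 (p = 0.607). For ACTB they were 0.45 (p = 0.229) and 0.47 (p = 0.202), for KRT7 0.18 (p = 0.625) and 0.34 (p = 0.370) and for SRGAP3 0.43 (p = 0.245) and 0.49 (p = 0.184), all over 10 hens by exact permutation. For SCNN1A, replicate 4 at 50 weeks lay apart by a gap wider than the spread of all other hens and was set aside, and over the other 9 hens r was 0.63 (exact permutation p = 0.0944) and Spearman's coefficient 0.82 (p = 0.0194). With that hen kept, over all 10, they were 0.02 (exact permutation p = 0.951) and 0.30 (p = 0.411). Adjusted p over the 5 genes was 0.409 to 0.639 for r and 0.0972 to 0.607 for Spearman's coefficient. Without the 2 hens farthest from the median of the gene, r over 8 hens was 0.45 for COL6A2, 0.47 for ACTB, 0.57 for SCNN1A, 0.81 for KRT7 (exact permutation p = 0.0417, adjusted p = 0.195) and 0.59 for SRGAP3. Over the 7 hens outside the high 3, r was -0.15 for COL6A2, 0.20 for ACTB, 0.24 for SCNN1A, 0.55 for KRT7 and 0.44 for SRGAP3, with exact permutation p of at least 0.250.

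These correlations also turned on single hens. Leaving out replicate 1 at 35 weeks lowered r to -0.07 for COL6A2, 0.03 for KRT7 and 0.20 for SRGAP3 over 9 hens. SCNN1A then had 0.43 over 8 hens and ACTB 0.20 over 7, with further hens set aside. Leaving out replicate 4 at 50 weeks moved r upward, except for SCNN1A, where that hen was already set aside. Without it, over 9 hens, r was 0.42 for COL6A2, 0.71 for ACTB (exact permutation p = 0.0358), 0.63 for SCNN1A, 0.72 for KRT7 (p = 0.0396) and 0.74 for SRGAP3 (p = 0.0281), and adjusted p for r was 0.0660 to 0.320. By Spearman's coefficient SCNN1A (0.82) and SRGAP3 (0.85) then passed, each with an adjusted exact permutation p of 0.0486. That did not hold over the 7 hens outside the high 3. There Spearman's coefficient was 0.11 for SCNN1A (exact permutation p = 0.799) and 0.14 for SRGAP3 (p = 0.8125). With ovalbumin left out of the egg white share, SCNN1A had a Spearman's coefficient of 0.90 over 9 hens (adjusted exact permutation p = 0.0434) and an r of 0.79 (adjusted p = 0.0660).

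**Figure D5:**
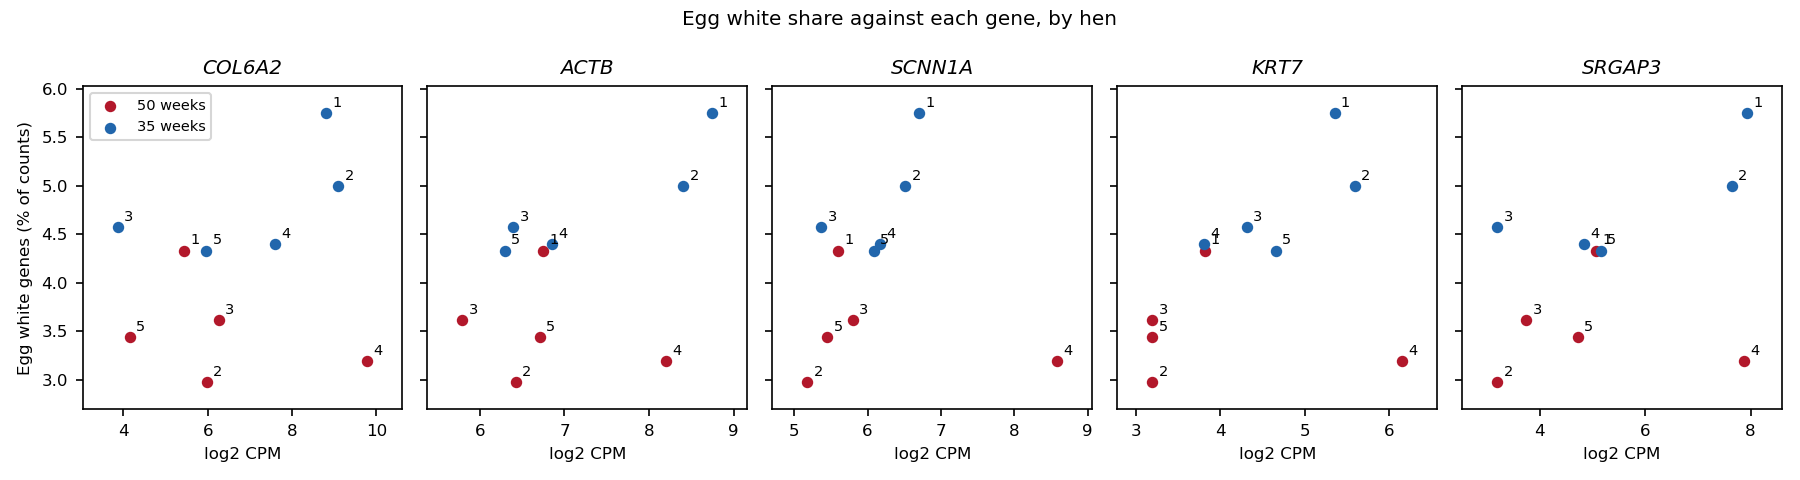
Share of all counts in the 22 egg white genes (vertical axis, percent) against log2 CPM (prior count 2) of each of the 5 genes (horizontal axes), one point per hen at 50 weeks (red) and 35 weeks (blue) with its replicate number. Replicates 1 and 2 at 35 weeks have the highest shares (5.75% and 5.00%), and replicate 4 at 50 weeks lies at the right of every panel with a share of 3.19%.

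In the chicken build GRCg7b, matched through the NCBI gene ID, COL6A2 lies on chromosome 7 from 6816273 to 6842300, where its end overlaps FTCD by 21 bases, and FTCD had 1 count in all 10 libraries. ACTB lies on chromosome 14 from 4180680 to 4184911 and contains the microRNA gene MIR3533. SCNN1A lies on chromosome 1 from 76851265 to 76859675, wholly inside the span of VAMP1, a vesicle fusion gene, which had 0 to 2 counts in each hen. KRT7 lies on chromosome 34 from 2076457 to 2086142, with no annotated neighbour within 1 kb. SRGAP3 lies on chromosome 12 from 19516714 to 19584828 and shares 1401 bases with the non-coding gene LOC121106670. The counted overlapping genes were near 0, too few to show whether they shared the pattern of the 3 hens. Reads of the 2 overlapping genes without a count row and of the gene that holds them cannot be told apart here, since no source used here states whether counting used strand.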

How the data were processed

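Per the labels' protocols, RNA of whole magnum from 10 hens was extracted with TRIzol and made into directional mRNA libraries. The build GRCg7b and the tools HISAT2, Trimmomatic, DESeq2 and Cufflinks appear in the submitters' processing notes. No source used here gives the read counter or its strand setting. Whole-number counts per Ensembl gene were deposited, not normalized, and with them a table of the authors' own age comparison whose p-values and adjusted p-values, per the file headers, were used only to see whether the 5 genes are listed. Of those, 109 of 203 adjusted p are blank.

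Columns were matched to samples by the name in each sample's description. The 5 genes, the gene lists and the tests were chosen with earlier results of these data known, and the 3 libraries that stand apart were known too. For age, edgeR 4.0.16 ran under R 4.3.3 (filterByExpr with a minimum count of 10, TMM, robust quasi-likelihood, two-sided, Benjamini-Hochberg over all tested genes, threshold 0.05), and checked on simulated data. CPM are counts over TMM-scaled library totals, and log2 CPM has a prior count of 2. Correlations with the egg white share used deviations from the mean of each age, permuted within the ages. Where 1 gap between sorted values was wider than all other gaps together, r was taken within the larger group. The rule for naming genes took the 5 genes, the 4 most correlated with each, the 2 genes of each list with the smallest p and the 2 with the highest mean CPM, the 4 highest egg white genes and annotated neighbours within 1 kb. Some items that this rule names are not reported here. Partner genes such as COL6A1 and SCNN1B, CD3E and ARPC4 were named after their values were seen. Symbols and coordinates come from the count table and from NCBI RefSeq for GRCg7b. Other settings were RLE factors, library totals, TMM without egg white genes, other filters, DESeq2 1.42.0, limma 3.58.1 (voom with sample weights), a replicate block, a prior count of 0.5, the egg white share without ovalbumin, and leaving out hens. Other tools were scipy 1.17.1, pandas 2.3.3, numpy 2.4.6 and matplotlib 3.10.9 under Python 3.11.15.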

Additional observations from a re-analysis of the deposited data

Results flagged for a closer look

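Replicate 4 at 50 weeks lay apart from the other 4 hens of its age in each of the 5 genes, by a gap larger than the 95% critical value of Dixon's test for 5 samples (0.71 of the range). COL6A2 reached 873 CPM in that hen, with a gap of 0.932 of the range, and SCNN1A reached 375 CPM (0.945). KRT7 reached 61.8 CPM (0.921), SRGAP3 224 CPM (0.891) and ACTB 286 CPM (0.784). These are 5 of 12 groups examined, the 5 genes and the egg white share at each age. Chance flags about 1 in 20 only among groups not picked for their spread, so that rate does not apply to the 5 genes. The gaps were taken on the CPM scale, not on log2 CPM. The 5 values come from 1 library, and the genes were chosen for their spread between hens, so they are not separate events. No group at 35 weeks was flagged, where a pair of hens was high together.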

How the results depend on the processing

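No age difference of the 5 genes passed the threshold under any setting. The sign of COL6A2 turned on leaving out any 1 of 6 hens, with log2 fold changes of -2.56 to 0.29 over the 10 hens left out in turn. SCNN1A turned to -0.42 with limma-voom and sample weights and to -0.48 without the 3 high hens, and ran from -0.84 to 0.91 with 1 hen left out. The ranges with 1 hen left out were -1.35 to -0.27 for ACTB, -3.63 to -0.15 for KRT7 and -3.00 to -0.11 for SRGAP3, and no setting turned these 3. Voom moved KRT7 to -2.06 (unadjusted p = 0.00394, adjusted p = 0.310 by limma-voom), COL6A2 to -0.90, SRGAP3 to -1.19 and ACTB to -0.61 with all hens kept. The cause of the shifts by voom was not tested.

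The count of genes called over all genes was 1, and 36 with no filter, 40 with a filter of 1 CPM in 5 or more libraries, 17 with DESeq2, 12 with limma-voom, 43 without the 3 high hens and 1 to 12 with 1 hen left out (12 without replicate 4 at 50 weeks, 2 without replicates 1 or 4 at 35 weeks or replicate 5 at 50 weeks). None of the 5 genes was among the calls. DESeq2 gave no adjusted p for ACTB and SCNN1A.

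Deviations of same-numbered hens had correlations of -0.115 to 0.098. Of the libraries, 4 of 10 correlated best with their own number, which was not tested against chance. The replicate numbers were not used as pairs in the main fit. With a replicate block 2 genes were called, and the log2 fold changes were -0.95 for COL6A2, -0.64 for ACTB, 0.04 for SCNN1A, -1.08 for KRT7 and -1.16 for SRGAP3.

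The difference in egg white share ran from -1.50 to -1.06 points with 1 hen left out (exact permutation p of 0.00794 to 0.0238) and missed the threshold without the 3 high hens, at -0.844 points with 7 hens left. The correlation of COL6A2 with that share turned to -0.15 without those hens and ran from -0.0697 (without replicate 1 at 35 weeks) to 0.42 with 1 hen left out. The ranges were 0.20 to 0.71 for ACTB, 0.43 to 0.83 for SCNN1A, 0.03 to 0.73 for KRT7 and 0.20 to 0.74 for SRGAP3. In some of these further hens lay apart and were set aside, leaving 6 to 9 hens for ACTB and 8 or 9 for SCNN1A and KRT7, and the 0.20 of ACTB is over the 7 hens outside the high 3. No adjusted p for r passed under any setting. For Spearman's coefficient 3 did (adjusted p of 0.0434 to 0.0486), those of SCNN1A and SRGAP3 without replicate 4 at 50 weeks and that of SCNN1A without ovalbumin. The first of these has the same hens and unadjusted p as the main result of SCNN1A, which did not pass.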
